A study of Homo sapiens with 6 samples.

Results

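RB depletion in hormone-deprived prostate cancer cells was examined by setting the open-chromatin peaks of RB-depleted cells beside those of control cells grown without hormone. The cells were LNCaP, an established androgen-sensitive line that was derived from a human prostate cancer. One line expressed a control hairpin (shCON) and the other a hairpin directed at RB (shRB). Accessibility was mapped by ATAC-seq, in which a transposase cuts exposed DNA and leaves sequencing adapters there. Both groups compared had been kept under CDT for 72 hours, the condition that the study's design text calls hormone deficient, and differed in the hairpin. They held 4 of the series' 6 libraries, and 26884 of the 39780 peaks in its 3 lists. Control cells that also received dihydrotestosterone (DHT, an androgen) for 3 hours made up the other group and serve here as context. The labels call the 2 lines isogenic and give neither the number of hairpins nor whether a line was 1 clone. Whether the 2 libraries within a group were separate cultures is not stated.

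The retinoblastoma protein RB is a tumour suppressor that binds E2F transcription factors and holds back the genes needed for entry into S phase. It does so partly by recruiting enzymes that modify histones and remodel nucleosomes, and cyclin-dependent kinases release the block by phosphorylating RB. Loss of RB is a known event in advanced prostate cancer that no longer depends on androgen. Accessible sites are mostly promoters and enhancers, so a list of peaks is a list of candidate regulatory DNA.

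The authors merged the 2 libraries of each group into 1 list, giving for each peak a position in hg19 and a whole-number score from 413 to 1000. The score was used to order peaks within a list, and 1000 is a ceiling reached by many peaks, called the cap below. With 1 list per group there is no replicate spread to set a difference against, so no p-value is given. Intervals are exact 95% intervals that cover counting error only and treat peaks as independent. The depth behind the lists is unknown, and the number of peaks that pass can move with depth and with how well 2 libraries agree, whose part in the results was not tested. The lists hold no RNA or protein measurement, so neither the loss of RB nor the identity of the cells could be checked in them. Peaks are named by position, and no gene, exon, intron or sequence was assigned, since no hg19 annotation or genome was used.

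RB-depleted cells had the longer list, 14788 peaks against 12096 in control cells, and most control sites were retained in it. A peak counted as shared when it overlapped a peak of the other list by at least 1 bp. By that rule 6043 shRB CDT peaks had no control counterpart, 40.9% of the list, and 3240 shCON CDT peaks had no counterpart in RB-depleted cells, 26.8% of theirs. When both lists were cut by score to 12096 peaks the 2 directions came to 3838 and 3696, although equal lengths bring them close by construction.

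The extra accessible sequence of RB-depleted cells lay mainly in whole additional peaks and less in the margins of shared ones. Peaks covered 15.0 Mb in shRB CDT and 11.7 Mb in shCON CDT, with 8.42 Mb in both. Of the 6.55 Mb covered in shRB CDT alone, 4.88 Mb (74.5%) belonged to unshared peaks and 1.67 Mb to the margins of shared peaks that reached beyond their counterpart. Of the 3.25 Mb covered in shCON CDT alone, 2.16 Mb (66.4%) belonged to unshared peaks and 1.09 Mb to such margins. The margins were thus 11.2% of all shRB CDT sequence and 9.35% of all shCON CDT sequence.

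Sharing rose with the score in both lists. Among shRB CDT peaks scored under 500, 18.1% (16.7 to 19.6) had a control counterpart, and the share climbed through 39.0% (36.6 to 41.5) at 600 to 699 to 94.6% (93.9 to 95.2) at the cap. Among shCON CDT peaks the same bands gave 35.7% (33.8 to 37.7), 68.0% (65.4 to 70.5) and 98.3% (97.8 to 98.7). The sites that the 2 lists disagreed on were therefore mostly low-scoring ones. How the score was computed is not given, so a low score is not read as weak accessibility. Scores under 600 made up 61.3% of the unshared shRB CDT peaks and 12.4% of the shared ones, and in shCON CDT these shares were 72.3% and 19.4%. The control curve lay above the shRB curve in each of the 7 bands, but a score does not stand for the same rank in lists of different length, and a peak finds a counterpart more often in the longer list.

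**Figure D1:**
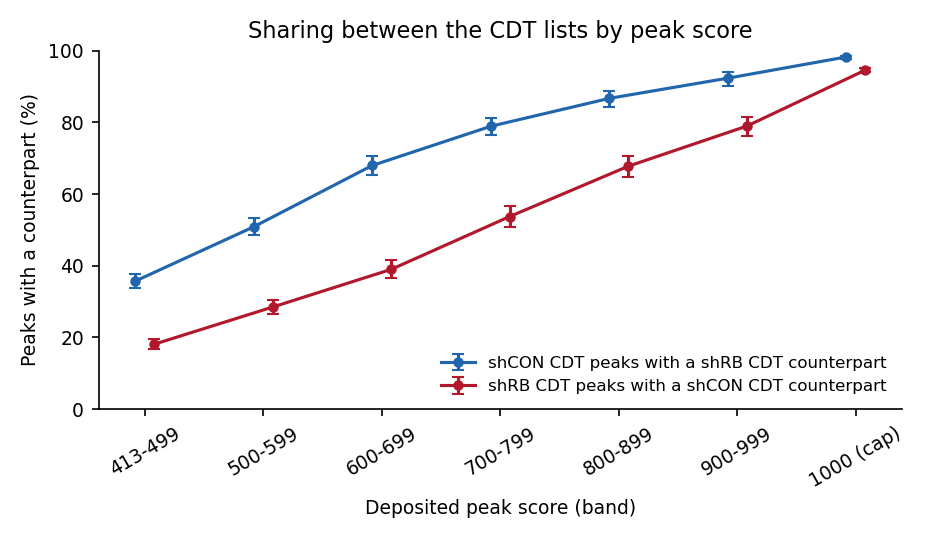
Percentage of peaks with a counterpart in the other CDT list (vertical axis) by deposited score band (horizontal axis), for shCON CDT peaks (blue) and shRB CDT peaks (red), with exact 95% binomial intervals. Sharing climbs from 18.1% to 94.6% in shRB CDT and from 35.7% to 98.3% in shCON CDT.

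A small set of capped peaks was nevertheless found in only 1 of the 2 CDT lists. At the cap, 281 of 5192 shRB CDT peaks and 68 of 3931 shCON CDT peaks lacked a counterpart. Of these, 183 of the 281 and 33 of the 68 overlapped a shCON DHT peak. With the shRB CDT list cut to 12096 peaks, 90 of the 3931 capped control peaks (2.29%) lacked a CDT counterpart, beside the unchanged 281 of 5192 (5.41%). The lead of the RB-depleted cells among capped unshared sites remained after this cut, in number and as a share. The cut could change only the control count, since it kept the whole control list and every capped shRB CDT peak. More peaks stood at the cap in shRB CDT than in shCON CDT, so capped peaks are a wider class there.

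Unshared peaks were narrower than shared ones. The median width was 750 bp (737 to 765) for unshared and 1135 bp (1123 to 1146) for shared shRB CDT peaks, and 618 bp (602 to 633) and 1050 bp (1040 to 1060) for those of shCON CDT. Wide peaks are also the high-scoring ones, so widths were compared within score bands. At scores under 500 the medians were 660 bp unshared against 949 bp shared in shRB CDT, and 584 bp against 868 bp in shCON CDT. The 2 lists parted at the top of the scale. Unshared shRB CDT peaks widened with score to 930 bp (882 to 978) at the cap, whereas the 68 unshared shCON CDT peaks at the cap had a median of 572.5 bp (435 to 752), beside 1138 bp for the shared ones. The intervals of these 2 medians do not overlap, but they cover counting error only, and the difference was not tested. The 2 classes also differ in make-up. Capped peaks were 35.1% of the shRB CDT list and 32.5% of the shCON CDT list, and control peaks were matched against the longer list.

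**Figure D2:**
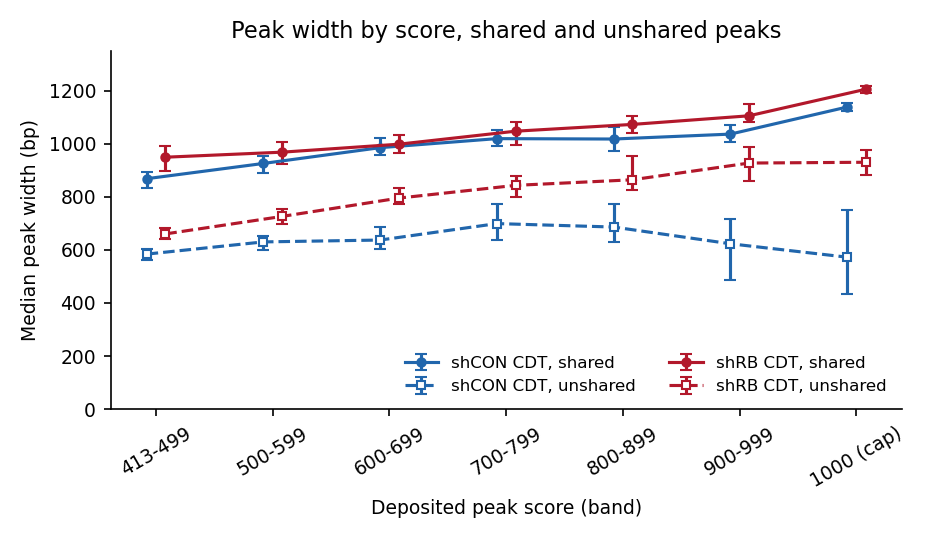
Median peak width in bp (vertical axis) by deposited score band (horizontal axis) for shared (filled, solid) and unshared (open, dashed) peaks of shRB CDT (red) and shCON CDT (blue), with 95% order-statistic intervals of the median. Unshared peaks lie below shared ones in every band, and at the cap the unshared medians are 930 bp in shRB CDT and 572.5 bp in shCON CDT.

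Width also sorted peaks by whether they were shared. In the narrowest of 5 equal groups of shRB CDT peaks (150 to 611 bp) 25.3% (23.8 to 26.9) had a control counterpart, and in the widest (1386 to 3006 bp) 80.4% (79.0 to 81.9). In shCON CDT the narrowest group (150 to 577 bp) was shared at 39.97% (38.0 to 41.9) and the widest (1326 to 3000 bp) at 93.8% (92.8 to 94.8). A wide peak has more bases in which an overlap of 1 bp can fall, so part of this follows from the rule. With all peaks reset to 500 bp around their midpoint, the shares over whole lists were 57.5% for shRB CDT and 70.7% for shCON CDT, against 59.1% and 73.2% as deposited.

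The highest-scoring unshared sites of RB-depleted cells were ranked by score and then by width. All 5 stood at the cap.
Site 1 was chr12:1702277-1704588, 2312 bp wide, and the closest control peak was 66.0 kb away.
Site 2 was chr16:52579964-52581892, 1929 bp wide, and it stood alone, 507 kb from the closest control peak and equally far from any other shRB CDT peak.
Site 3 was chr17:78009135-78011061, 1927 bp wide and 42.2 kb from a control peak.
Site 4 was chr5:77943776-77945700, 1925 bp wide and 50.1 kb from one.
Site 5 was chr20:30605516-30607362, 1847 bp wide and 11.5 kb from one.
Each was wider than at least 96.1% of all shRB CDT peaks, which follows from the ranking. It took the widest of 281 unshared peaks tied at the cap, whose median width was 930 bp. In the DHT-treated control cells a peak overlapped each of them except the chromosome 16 site, which was listed in RB-depleted cells alone.

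The highest-scoring unshared control sites, also at the cap, were by the same ranking the widest of 68 tied peaks. Their widths cannot be compared with those above, which were the widest of 281.
Site 1 was chr22:25348176-25349787, 1612 bp wide and 145 kb from the closest shRB CDT peak.
Site 2 was chr1:101490745-101492313, 1569 bp wide and 129 kb from one, with another control peak only 0.074 kb away.
Site 3 was chr5:107007076-107008542, 1467 bp wide, 274 kb from an shRB CDT peak and 708 kb from any other control peak.
Site 4 was chr7:130080330-130081573, 1244 bp wide and 33.7 kb from one.
Site 5 was chr19:58858205-58859385, 1181 bp wide and 14.2 kb from one.
The sites on chromosomes 22, 1 and 7 also carried a peak after DHT, and those on chromosomes 5 and 19 did not.

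Sites unshared between the CDT lists were open in DHT-treated cells more often the higher they scored. Of unshared shRB CDT peaks, 10.4% (9.19 to 11.8) overlapped a shCON DHT peak at scores under 500, 31.5% (27.7 to 35.5) at 700 to 799 and 65.1% (59.2 to 70.7) at the cap. Unshared shCON CDT peaks gave 11.3% (9.76 to 13.1), 32.6% (26.5 to 39.1) and 48.5% (36.2 to 61.0) in these bands. The 2 series of shares were close in the first 2 of these bands. At the cap the shRB CDT share was the higher and the intervals overlapped only narrowly, a difference that was not tested. Shared peaks were in the DHT list far more often, at 49.7% in the lowest band and 94.7% at the cap in shRB CDT.

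At most shared places 1 peak of each list met 1 of the other, and shRB CDT peaks were slightly the wider. There were 8104 such sites, 92.7% of the shared shRB CDT peaks and 91.5% of the shared shCON CDT peaks. The shRB CDT peak was the wider at 4698 sites (58.0%, 56.9 to 59.0), the control peak at 3382, and both were equally wide at 24. The median ratio of shRB to shCON width was 1.04 (1.04 to 1.05), with the central 50% of sites between 0.904 and 1.24. Over whole lists the median width was 992 bp in shRB CDT, 937 bp in shCON CDT and 776 bp in shCON DHT. Widths thus also differed between the 2 lists of the control line, and what set them was not tested. Peaks over 1.5 times as wide in RB-depleted cells numbered 971 (12.0%), and those over 1.5 times as wide in control cells 403 (4.97%). The added width was even on both sides, with a median of 15 bp at the left end and 14 bp at the right end. Midpoints lay a median of 86 bp apart. The excess was seen in all bands of control score, with a ratio of 1.08 (1.05 to 1.12) where the control peak scored under 500. Where it stood at the cap the ratio was 1.03 (1.02 to 1.04). Banding by the control score alone selects on 1 side of the pair, and control peaks under 500 had partners with a median score of 701. The difference between bands is therefore not read as a result. By chromosome the median ratio ran from 1.003 on chromosome 18 to 1.08 on chromosome 20 among autosomes.

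Some places were 1 peak in 1 list and several in the other. In shRB CDT 288 peaks overlapped 2 or more control peaks, 6 of them 3. In shCON CDT 180 peaks overlapped 2 or more shRB CDT peaks, 3 of them 3. The widest shRB CDT peak to meet 3 was chr9:130330265-130332294, 2030 bp wide, which overlapped control peaks of 200 to 1052 bp with 150 bp between them in all. Next by width came chr2:150186312-150187905 (1594 bp), chr11:35965298-35966864 (1567 bp), chr12:106641065-106642543 (1479 bp) and chr1:201475949-201477068 (1120 bp), also with 3 control peaks each. The reverse was seen most widely at chr9:2014720-2017279, a capped control peak of 2560 bp that met 3 shRB CDT peaks of 841 to 1120 bp. The other control peaks that met 3 were chr2:208575561-208577068 (1508 bp) and chr16:71322658-71323895 (1238 bp), and among those that met 2 the widest were chr8:101962556-101965419 (2864 bp) and chr13:41238542-41241252 (2711 bp).

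Most paired peaks at the cap in 1 list were at the cap in the other, and the pairs that parted did so mainly on the side of RB-depleted cells. Both peaks stood at the cap at 3036 sites (37.5% of the 8104), the shRB CDT peak alone at 1584 (19.5%, 18.7 to 20.4), the control peak alone at 586 (7.23%, 6.68 to 7.82) and neither at 2898. Of control peaks scored under 500, 15.7% (13.1 to 18.6) had a partner at the cap in shRB CDT. Of shRB CDT peaks with such a score, 4.93% (3.03 to 7.51) had a partner at the cap in shCON CDT. Each score is a standing within its own list, whose share of capped peaks was 35.1% in shRB CDT and 32.5% in shCON CDT, so these counts describe the lists and are not a measured change in accessibility. In within-list score percentiles the median difference, shRB CDT minus shCON CDT, was -1.31 points, which is the gap between the caps of the 2 lists (percentiles 82.4 and 83.8).

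**Figure D3:**
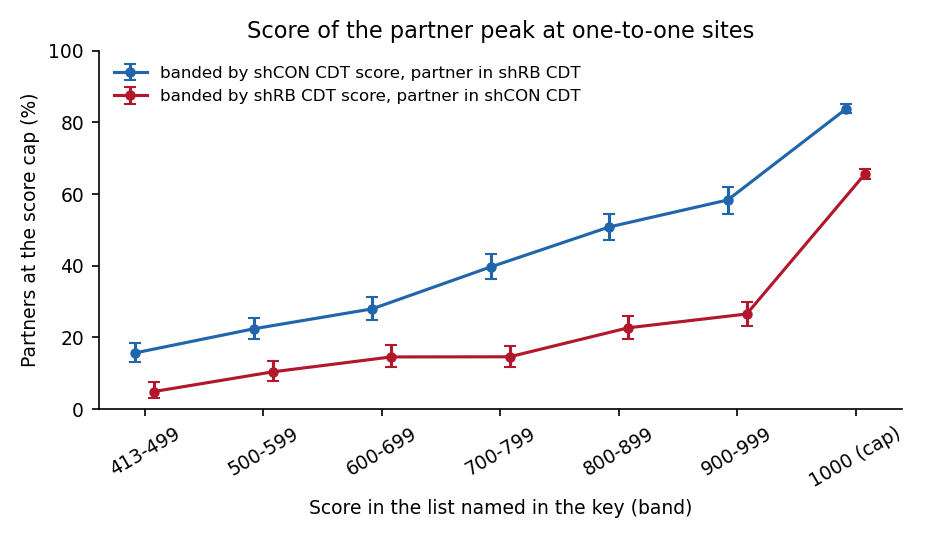
Percentage of partner peaks at the score cap (vertical axis) by the score band of the peak in the list named in the key (horizontal axis), at the 8104 sites with 1 peak of each list, with exact 95% binomial intervals. A control peak in the lowest band has a capped partner at 15.7% of sites, and an shRB CDT peak in that band at 4.93%.

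The paired sites that stood furthest apart in rank were present in both lists all the same. The peak at chr1:150459655-150460338 was at the cap in shRB CDT and scored 413, the list minimum, in shCON CDT, a difference of 82.3 percentile points. Next came chr1:210111049-210112024, chr16:87416530-87418070, chr4:156587836-156589026 and chr1:39570581-39571917, at the cap in shRB CDT and with control scores of 415, 417, 419 and 421. Each of these 5 shRB CDT peaks also overlapped a peak after DHT, as did 94.7% of all shared shRB CDT peaks at the cap. In the other direction the widest difference, -81.7 points, was at chr4:4861005-4862636, which scored 421 in shRB CDT beside a capped control peak. It was followed by chr1:85462675-85463959, chr15:100889612-100890896, chr17:65713685-65714809 and chr1:86173164-86174442, with shRB CDT scores of 423, 439, 443 and 444 beside capped control peaks. Each of the 5 shRB CDT peaks in this direction, except that on chromosome 15, overlapped a peak after DHT. Among all shared shRB CDT peaks scored under 500 the share was 49.7%. Of these 5, the shRB CDT peaks were wider than their control partners except at chr1:85462675-85463959, where the widths were 1285 and 1673 bp. At the 5 sites with the higher rank in shRB CDT the widths went both ways. The shRB CDT peak was the wider at the first and second of them (684 against 522 bp, and 976 against 767 bp) and the narrower at the others (1541 against 1668 bp, 1191 against 1242 bp, and 1337 against 1416 bp).

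Unshared peaks were seldom displaced copies of a peak in the other list. The closest control peak was a median of 50.8 kb (48.4 to 53.1) from an unshared shRB CDT peak, and 219 of the 6043 (3.62%) lay within 0.5 kb of one. For unshared shCON CDT peaks the median was 44.0 kb (41.8 to 47.0), and 164 of 3240 (5.06%) lay within 0.5 kb. At the far end, 239 unshared shRB CDT peaks (3.95%) and 144 unshared shCON CDT peaks (4.44%) were 500 kb or more from the other list.

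Unshared peaks tended to sit beside each other. Of unshared shRB CDT peaks, 47.1% (45.8 to 48.3) had another unshared peak as the closest of their own list, against 38.3% (37.3 to 39.3) of shared peaks and the 40.9% of unshared peaks in the list. In shCON CDT these shares were 38.9% (37.2 to 40.6) and 23.1% (22.2 to 24.0), beside 26.8% in the list. Among peaks scored under 500 the split was of like size, 49.7% against 39.0% in shRB CDT and 41.1% against 24.8% in shCON CDT. In lists of equal length it was 37.8% against 30.1% in shRB CDT and 41.4% against 26.3% in shCON CDT.

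Some unshared peaks followed one another along a chromosome with no peak of the other list between them. Such runs of 2 or more held 60.2% of the unshared shRB CDT peaks and 42.3% of the unshared shCON CDT peaks. This lead came with the longer list: in lists of equal length the shares were 47.7% and 49.9%. The longest run of each direction is therefore a description of places and not a comparison.

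In RB-depleted cells 2 runs had 9 peaks. The first lay on chromosome 1 from 29585504 to 31024883, with scores of 414 to 806 and no peak that overlapped the DHT list. The other spanned chr3:45883246-47018499, where 4 of the 9 overlapped the DHT list. Runs of 8 peaks lay at chr2:235423912-236687573, at chr3:194039461-194403585 and at chr5:1026580-1414013. The second of these was the most compact, 8 peaks in 364 kb, with scores of 429 to 958 and control peaks 5.75 kb before and 2.87 kb after it. There 4 of its peaks were also listed after DHT. The run on chromosome 5 held 8 peaks in 387 kb, none of them in the DHT list. The chromosome 2 run held the 1 capped peak among these 5 runs, and 2 of its 8 peaks overlapped the DHT list. Over all unshared shRB CDT peaks the share that overlapped the DHT list was 21.6%.

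The longest control run lay on chromosome X from 398457 to 1263844, with 8 peaks that scored 429 to 602, none overlapping a DHT peak. This stretch belongs to the pseudoautosomal region at the tip of the short arm, which X and Y share. The other control runs had 5 peaks each. They lay at chr4:31749923-35105966, chr4:190470107-190611584, chr5:25330001-31526798 and chr7:8473113-9661298. The second of them was the most compact at 141 kb and sat near the end of the long arm of chromosome 4. The run on chromosome 5 stretched over 6197 kb and held the 1 capped peak among these runs. In the first of the 5-peak runs 2 peaks overlapped the DHT list, and in each of the others 1 did. Over all unshared shCON CDT peaks that share was 18.5%.

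**Figure D4:**
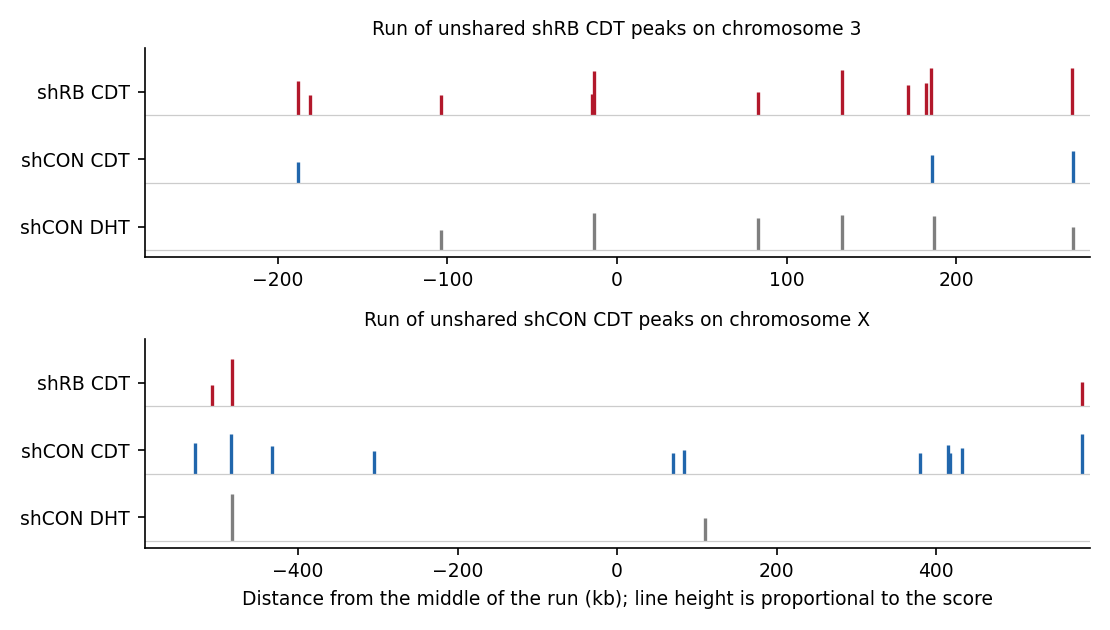
Peaks of the 3 lists around a run of 8 unshared shRB CDT peaks on chromosome 3 (top) and a run of 8 unshared shCON CDT peaks on chromosome X (bottom), as distance from the middle of the run in kb. Each vertical line is a peak, with a height proportional to its score. Inside the upper run the shCON CDT track is empty and 4 shCON DHT peaks are seen. Inside the lower run the shRB CDT track is empty and 1 shCON DHT peak is seen, which overlaps none of the 8 shCON CDT peaks.

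The gain of RB-depleted cells in peak number was broad along the genome. In 598 blocks of 5 Mb with a peak in either list, shRB CDT had more peaks in 434, shCON CDT in 115, and 49 were equal. In lists of equal length the numbers were 262, 266 and 68, so the lead in most blocks was that of the longer list. The blocks with the largest surplus, singled out after their values were seen, included 3 on chromosome 19, a chromosome dense in genes. The surplus is a difference in counts, which favours blocks with many peaks. Its first 5 Mb held 141 shRB CDT and 109 shCON CDT peaks, the block from 35000001 to 40000000 held 108 and 80, and that from 10000001 to 15000000 held 130 and 103. The block of chromosome 14 from 105000001, at the end of its long arm, held 48 and 22, of which 34 and 7 were unshared. In lists of equal length it still held 38 and 22. The first block of chromosome 19 came closer there, at 114 and 109, and the others held 96 and 80, and 115 and 103. Chromosome 19 as a whole held 947 and 782 peaks, and 791 and 782 in lists of equal length. Its unshared share in shRB CDT was 37.7% (34.6 to 40.9), an interval whose upper end only just held the 40.9% of the whole list. In shCON CDT its unshared share was 22.9%, with an interval wholly below the 26.8% of the whole list. The chromosome thus had no raised unshared share in either list, and a low one in shCON CDT.

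By chromosome, unshared shRB CDT peaks outnumbered unshared shCON CDT peaks on 22 of 24, with chromosomes 21 and Y the exceptions. In lists of equal length they did so on 12, the control peaks did on 11, and 1 was equal. In shRB CDT the unshared share was highest on chromosome 18 at 48.3% (42.4 to 54.2), on chromosome 22 at 47.0% (41.7 to 52.4) and on chromosome 3 at 45.4% (42.3 to 48.6), against 40.9% in the whole list. It was lowest on chromosome Y at 16.7% (4.74 to 37.4), from 4 of 24 peaks, and on chromosome 21 at 31.7% (24.3 to 39.96). In 17 of the 24 chromosomes the interval held the value of the whole list, and for shCON CDT in 18. In shCON CDT the share was highest on chromosome 21 at 44.9% (37.5 to 52.6), then on chromosome Y at 39.4% (22.9 to 57.9), from 13 of 33 peaks, and on chromosome 22 at 34.5% (29.0 to 40.4), against 26.8%. Chromosome 22 was thus high in both directions, with both intervals above the whole-list values. Chromosome 18 came close, at 32.8% (26.8 to 39.2) in shCON CDT. The shares of chromosomes 5, 7, 8, 10 and 20 also exceeded both whole-list values.

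**Figure D5:**
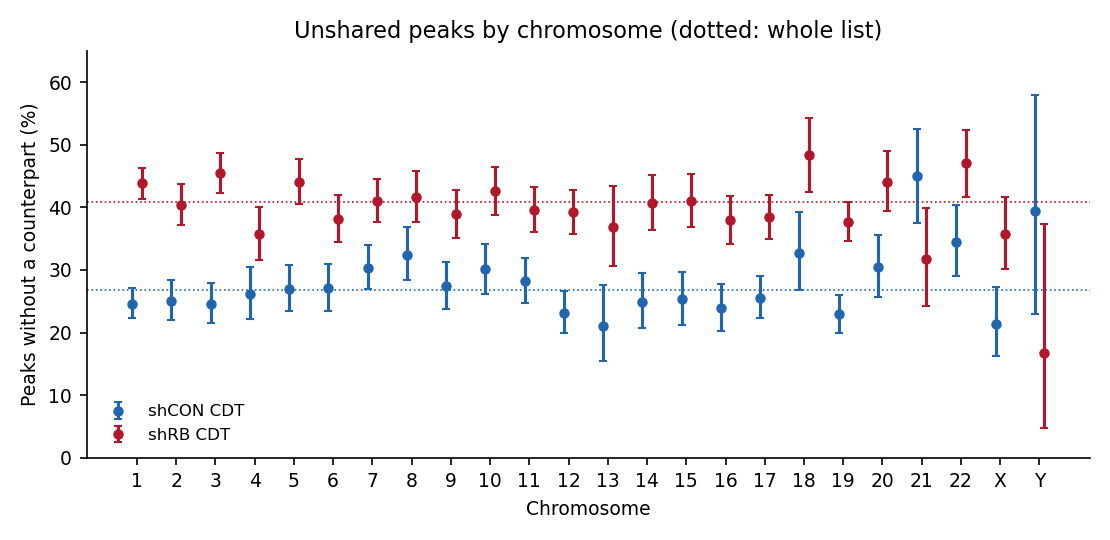
Percentage of peaks without a counterpart in the other CDT list (vertical axis) on each chromosome (horizontal axis) for shRB CDT (red) and shCON CDT (blue), with exact 95% binomial intervals; dotted lines mark the whole lists at 40.9% and 26.8%. On chromosomes 21 and Y the blue point lies above the red one.

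In the full lists chromosome 21 was the 1 autosome with fewer peaks, and fewer unshared peaks, in RB-depleted cells. It held 145 shRB CDT peaks and 178 shCON CDT peaks, and 46 and 80 of them were unshared. In lists of equal length it held 114 and 178, with 25 and 89 unshared. There the unshared control peaks were also the more numerous on chromosomes 4, 6, 7, 8, 9, 10, 11, 18 and 20, by smaller margins such as 135 against 125 on chromosome 4 and 234 against 201 on chromosome 7. The difference was on both sides of the widest stretch without a peak, between peak midpoints at 11170104 and 14752244. Before it lay 20 shRB CDT, 34 shCON CDT and 15 shCON DHT peaks, and after it 125, 144 and 141. Before the gap 23 of the 34 control peaks (67.6%, 49.5 to 82.6) were unshared, with a median width of 383 bp, and 2 of the 23 were in the DHT list. After it 57 of the 144 (39.6%, 31.5 to 48.1) were unshared, with a median width of 574 bp, and 9 of the 57 were in the DHT list. Of all 80, 1 stood at the cap. In the block from 15000001 to 20000000 none of the 9 shRB CDT peaks was unshared, while 11 of the 20 control peaks were. At the 92 paired sites of this chromosome the median width ratio was 1.004 (0.961 to 1.03), near the low end of the autosomes. The number of copies of each chromosome in the 2 lines is not given in the labels, and its part in these counts was not tested.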

How the data were processed

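ATAC-seq libraries of LNCaP cells were compared for shRB CDT and shCON CDT (2 libraries each). Per the labels, each reaction used 75000 cells and 30 minutes of transposition at 37 °C. The authors deposited 1 peak list per group, with a position and a score per peak. The list names, given in the labels, carry an IDR threshold of 0.1 and mention filtering, merging and scoring. Per the submitters' processing notes, positions are in hg19. Not given in the sources used here are how the score was computed, the aligner and peak caller, and whether reads were filtered or shifted for the transposase offset.

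Overlaps, distances, runs and widths were computed in Python 3.11.15 with numpy 2.4.6 and scipy 1.17.1. bedtools 2.31.1 gave the same unshared counts, and tests on simulated lists recovered 42 of 42 planted values. Figures used matplotlib 3.10.9. Shares have exact (Clopper-Pearson) and medians order-statistic 95% intervals. Percentiles are mid-ranks within a list. Equal-length lists keep the 12096 highest scores, wider peaks first at ties. Positions count from 1.

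Regions were named by rule, 5 in each direction: the highest-scoring unshared peaks (ties by width), the widest rank differences at paired sites, the peaks that overlap most others (ties by width), and the longest runs. Members, lists and rules were chosen with earlier results of these data known. Promoter, gene list and motif comparisons were not run, as the gene and promoter tables at hand are of GRCh38.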

Additional observations from a re-analysis of the deposited data

How the results depend on the processing

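Of 61 values of 11 results under 6 alternatives, 30 stayed within their interval (counts and lengths within 1.5 times) and 31 did not. None changed sign. Pairs of values follow the order shRB CDT, shCON CDT. Shared percentages (59.1 and 73.2 as reported) were 53.7 and 65.7 with a 50% reciprocal overlap, 60.6 and 74.6 when a gap of up to 500 bp still counted as shared, 67.6 and 83.4 in the top 50% by score, 68.3 and 69.4 in lists of equal length, and 57.5 and 70.7 with peaks reset to 500 bp. Unshared peaks numbered 2400 and 1006 in the top 50%, and 3838 in shRB CDT with equal lengths; both follow from shorter lists. The median score percentile of unshared peaks (25.6 and 21.1) was 27.8 and 24.1 with reciprocal overlap, 22.3 and 22.03 with equal lengths, and in shCON CDT 22.8 in the top 50% and 22.2 with reset peaks. Their median width (750 and 618 bp) was 769 bp in shRB CDT with reciprocal overlap, 1024.5 and 831 bp in the top 50%, and 806 and 640 bp with equal lengths, so unshared shRB CDT peaks were the wider in these settings (with reset peaks, widths are equal by construction). The width ratio at paired sites (1.04) was 1.035 with reciprocal overlap and 1.03 in the top 50%. Sequence of shRB CDT outside control peaks (6.55 Mb) was 3.43 Mb in the top 50% and 4.14 Mb with reset peaks, both by construction. The median percentile difference at paired sites (-1.31) was -2.57 in the top 50%, -5.21 with equal lengths and -1.28 on autosomes only, each set by the share of capped peaks. No paired analysis was possible because the lists combine both replicates of a group, which also kept single replicates from being left out. Depth is unknown, so a missing peak does not measure closed chromatin. Alternatives for promoter and motif windows were not run, as they need sequence or genes in hg19.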
